A study of Mus musculus with 6 samples.

Results

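Keratins of moist mucosal linings and of single-layered epithelia were measured in chemically induced skin papillomas that lacked or carried Atf2, a bZIP transcription factor related to CREB. The set held 9 genes: Krt4, Krt13 and Krt76, the mucosal keratins, and Krt7, Krt8, Krt18, Krt19, Krt20 and Krt23, the keratins of simple epithelia. Every probe whose platform annotation gave 1 of these symbols was taken, which made 12 of the 46116 probes on the array. Krt13, Krt8 and Krt23 had several probes and the other 6 genes had 1 probe each.

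Total RNA came from papillomas, benign skin tumours, of Atf2 knockout mice (1 pool of 3 mice) and of Atf2 wild-type mice (1 pool of 2 mice). Both pools shared the same mixed strain background (FVB and C57bl6), an age of about 9 months at tumour formation, and the same carcinogen protocol, in which a single dose of the mutagen DMBA preceded 30 weeks of the tumour promoter TPA. Each pool was hybridised to 3 Illumina bead arrays of the same chip, with the pools at different positions on it. The deleted part of Atf2, and whether all cells carried the deletion, are not given in the sources used here. Arrays of the same pool repeat 1 RNA extract, so each SD, SE and p-value measures technical spread, and nothing here measures the spread between mice. The 3 knockout arrays had median raw intensities of 109.9 to 135.5 and the 3 wild-type arrays of 135.8 to 148.2, with knockout array 3 the dimmest. Of the 4 Atf2 probes, 3 were not above background on any array, and the remaining one (2260348) averaged 135.7 in knockout and 182.3 in wild-type papillomas, with a log2 difference of -0.28 (limma adjusted p = 0.109), so the array gave no check of the genotype labels. Of the epidermal markers, 7 of 7 basal and 4 of 4 spinous keratinocyte genes on the array were above background on some array.

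Keratins build the intermediate filaments of epithelial cells, and each filament is made of type I and type II chains in equal number. Krt4 (type II) pairs with Krt13 (type I) above the basal layer of the oesophagus and mouth, and Krt8 (type II) pairs with Krt18 (type I) in simple epithelia such as gut, gland and liver. In mouse skin carcinogenesis, Krt13 is known to appear in papillomas as they progress and Krt8 and Krt18 in later, malignant stages, while normal interfollicular epidermis makes little of any of them. Fewer cells of a kind and less RNA per cell cannot be told apart in RNA from whole tumours.

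Krt23 was the one gene of the set with a probe past the threshold, and it was lower in the knockout pool. On its dimmer probe the difference was 2.80-fold, and on its brighter probe, which did not pass, it was 1.91-fold. Krt4 was higher in the knockout pool by just under 2-fold, and Krt7 and 1 Krt8 probe were higher by smaller amounts. Krt13 was bright in both pools, and its probes were higher in the knockout pool by 0.27 and 0.55 on the log2 scale. Krt18 gave no detectable difference, and Krt19, Krt20, Krt76 and the other Krt8 probe were at or near background in both pools.

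The comparison asked how papillomas without Atf2 differed from papillomas with it. Differences are on the log2 scale, knockout minus wild type, after background correction and quantile normalization, and a probe passed the threshold with a limma adjusted p under 0.05 and a difference of at least 2-fold, which is 1 on the log2 scale. Of the 12 probes, 11 passed the filter on dim probes and were tested, and the Krt19 probe did not. Past the threshold were 1 fall and 0 rises among the 11. After normalization the arrays of the pools did not overlap for 7 of the 11, 5 with knockout above and 2 with knockout below, against 27.8% and 20.6% of all tested probes. Over all 23058 tested probes 3.9% fell and 0.984% rose, or 4.88% in either direction (899 falls and 227 rises). With each array's background subtracted, 16118 probes were tested, and 1292 fell and 735 rose. The share in the set, 1 fall among 11, cannot be read as more than the background. With the adjusted p alone, 5 of the 11 probes were higher and 2 lower, against 20.9% and 17.6% of all tested probes (38.5% in either direction). At an unadjusted limma p under 0.05 the counts were the same 5 and 2. At that limit 29.7% of all genes, by brightest tested probe, were higher and 18.1% lower. The median log2 difference was 0.18 over the 11 probes and 0.05 over all tested probes.

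**Figure D1:**
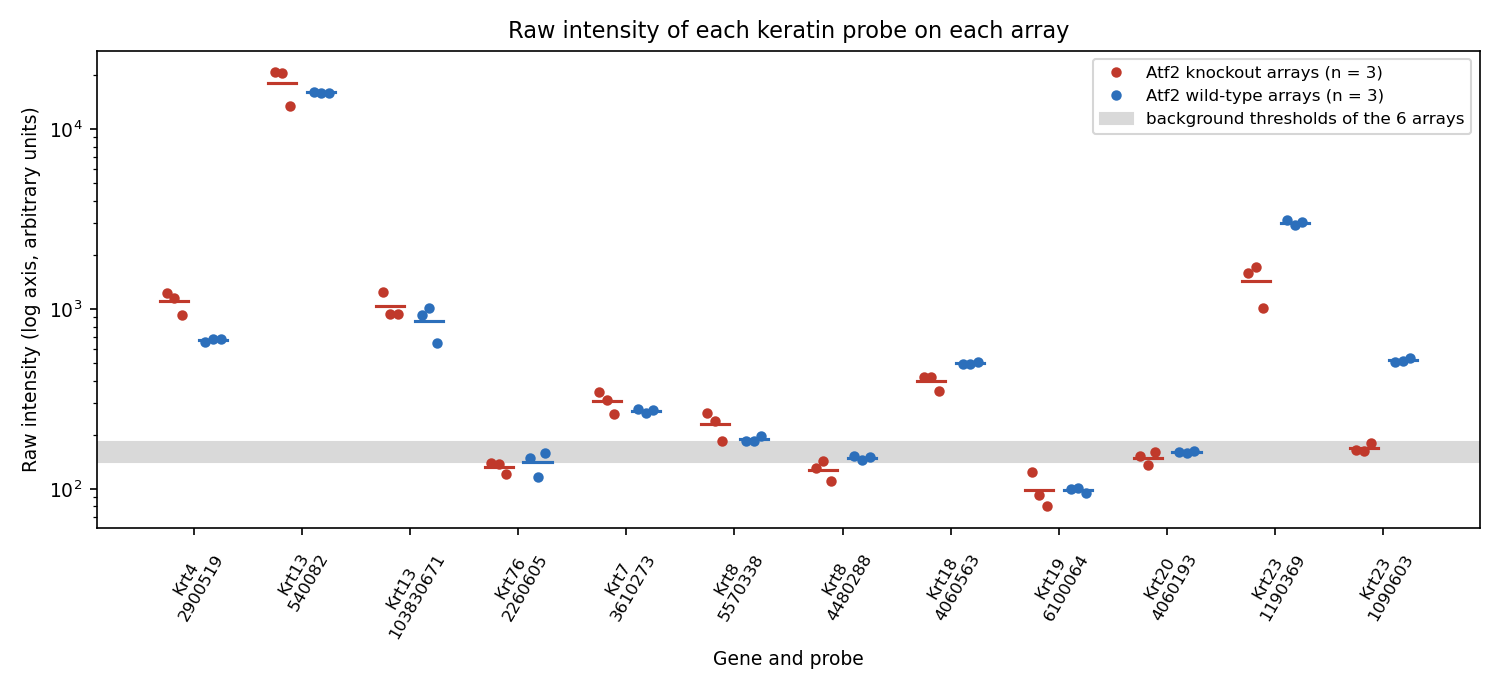
Raw intensity (log axis, arbitrary units) of the 12 keratin probes on the 3 knockout arrays (red) and the 3 wild-type arrays (blue), with short bars at the means and a grey band over the background thresholds of the 6 arrays. The Krt4 knockout arrays all lie above the wild-type arrays, both Krt23 probes lie lower in knockout, and the Krt76, Krt19 and Krt20 probes and 1 Krt8 probe sit in or under the grey band.

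Among the mucosal keratins, Krt4, the type II chain of the pair, read 1234, 1156 and 925.0 raw intensity units on the knockout arrays, against 659.9, 681.8 and 683.1 on the wild-type arrays. All 3 knockout arrays were above all 3 wild-type arrays, even the dim knockout array 3, and after normalization the knockout arrays had an SD of 0.00411 in log2 intensity (n = 3). The log2 difference was 0.9998 (SE 0.08, 95% interval 0.83 to 1.17, limma adjusted p = 9.66e-07), so Krt4 missed the size limit by the smallest margin in the set, and it was past that limit with 75th percentile scaling (1.01), with each array's background subtracted (1.12) and without wild-type array 3 (1.03). With 75th percentile scaling the median of all tested probes was 0.13, against 0.05 in the main setting. In the main setting, 1% of all tested probes had a higher difference than Krt4. In the authors' deposited table of log2 values, Krt4 averaged 10.24 in knockout and 9.30 in wild-type papillomas, a difference of 0.94.

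Krt13, the type I partner of Krt4, had a bright and a dimmer probe. The bright probe (540082) read 20671, 20410 and 13412 on the knockout arrays and 16173, 15943 and 15975 on the wild-type arrays. The raw groups overlapped because knockout array 3 was low, and after normalization the knockout arrays were all above the wild-type arrays. The log2 difference was 0.27 (SE 0.09, limma adjusted p = 0.0381), a ratio of 1.21. The adjusted p was above 0.05 without knockout array 1 or 2 (0.11 and 0.148), without any 1 of the wild-type arrays (0.0846 to 0.128), with background subtracted (0.0753) and with no filter on dim probes (0.0655). The dimmer probe (103830671) read 1241, 939.7 and 936.1 on the knockout arrays and 927.6, 1012 and 646.9 on the wild-type arrays, which overlapped before normalization. Its log2 difference was 0.55 (SE 0.15, limma adjusted p = 0.0121), and leaving out single arrays gave 0.35 to 0.67. The highest limma adjusted p of this probe over the alternatives was 0.0567, with background subtracted. The intervals of the probes, 0.07 to 0.48 for the bright one and 0.22 to 0.88 for the dimmer one, overlap.

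Krt76, a type II keratin of the hard palate and gingiva, was not above background on any array. Its probe read 138.8, 138.1 and 120.6 on the knockout arrays and 149.4, 116.3 and 159.1 on the wild-type arrays, and the groups overlapped. The log2 difference of 0.18 had an interval of -0.08 to 0.43 (limma adjusted p = 0.275), so no level of Krt76 can be given for either pool.

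Within arrays, the mucosal partners were compared with each other. Krt4 minus Krt13 (bright probe) was -4.02 ± 0.19 in knockout and -4.74 ± 0.04 in wild-type papillomas on the log2 scale (SD, n = 3 arrays each), a shift of 0.73 towards Krt4. The exact two-sided permutation test gave p = 0.1 (0.1 after adjustment over the 2 pairs tested), the smallest value that 3 arrays against 3 allow. With the dimmer Krt13 probe in its place, a choice made after the data had been seen, the shift was 0.45 (exact permutation p = 0.3).

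Among the simple epithelial keratins, Krt7, a type II chain of glandular ducts, read 346.9, 313.6 and 262.6 on the knockout arrays and 278.2, 265.4 and 275.7 on the wild-type arrays. The raw groups overlapped through knockout array 3, and after normalization all knockout arrays were above the wild-type arrays. The log2 difference was 0.59 (SE 0.08, limma adjusted p = 7.41e-05). It was between 0.48 and 0.89 under every other setting that used all 6 arrays.

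Krt8, the type II chain made earliest in embryonic epithelia, was measured by 1 of its probes. Probe 5570338 read 265.7, 239.9 and 184.0 on the knockout arrays and 185.2, 184.8 and 198.0 on the wild-type arrays. It was above background on all 6 arrays, but on the wild-type arrays only by a little, since these stood on average 61.7 units over the background mode, while the knockout arrays stood 117.2 units over theirs. The log2 difference was 0.69 (SE 0.08, interval 0.51 to 0.87, limma adjusted p = 3.19e-05), and it was past the 2-fold limit in 1 setting, in which each array's background was subtracted (1.29). The other Krt8 probe (4480288) did not exceed background on any of the 6 arrays, with a difference of -0.01 (adjusted p = 0.936) that says nothing of the transcript.

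Krt18, the type I partner of Krt8, read 421.4, 421.3 and 349.2 on the knockout arrays and 496.5, 494.4 and 510.0 on the wild-type arrays. The raw values were lower on every knockout array, and after normalization the groups overlapped. The log2 difference of -0.03 had an interval of -0.22 to 0.16 (limma adjusted p = 0.813), which leaves out differences of the size seen on the brighter Krt8 probe. Krt8 minus Krt18 was -0.88 ± 0.17 in knockout and -1.60 ± 0.05 in wild-type papillomas (log2, SD, n = 3 arrays each), a shift of 0.72 towards Krt8 (exact two-sided permutation p = 0.1, adjusted 0.1, the smallest possible).

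Krt19, a type I keratin without the tail domain of its relatives, and Krt20, a type I keratin of intestine and of Merkel cells, were at background. Krt19 read 123.7, 93.0 and 80.3 on the knockout arrays and 99.5, 101.8 and 95.2 on the wild-type arrays, and it was not above background on any of them. Krt20 read 151.9, 136.1 and 160.8 on the knockout arrays, of which array 3 was above background, and 160.7, 159.1 and 162.8 on the wild-type arrays, none of them above it. Its log2 difference was 0.18 (limma adjusted p = 0.341). Because Krt19 had no measured level, it could not be set against Krt7, with which it is often made.

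Krt23, a type I keratin of simple epithelia, was lower in knockout papillomas on both of its probes. The brighter probe (1190369) read 1592, 1703 and 1009 on the knockout arrays and 3109, 2922 and 3050 on the wild-type arrays, so every knockout array was well below every wild-type array. Its log2 difference was -0.93 (SE 0.11, limma adjusted p = 2.00e-05), 1.91-fold lower and within the size limit, which it passed in 1 alternative, without knockout array 2 (-1.03). The dimmer probe (1090603) read 165.2, 163.6 and 181.0 on the knockout arrays and 510.1, 517.0 and 533.7 on the wild-type arrays. It was above background on 2 of the 3 knockout arrays and on all wild-type arrays, and the groups were far apart. It fell by 1.48 on the log2 scale (SE 0.14, interval -1.78 to -1.18, adjusted p = 3.57e-06), and stayed past the threshold in all 14 alternatives in which it was tested, with values of -2.40 to -1.21. It was not tested in the alternative limited to probes that exceeded background on all 6 arrays. There, 0 of the 7 keratin probes passed limma's threshold (5 higher and 1 lower at an unadjusted limma p under 0.05). The median of all probes tested in that alternative was 0.12, and their share at that p is not given.

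**Figure D2:**
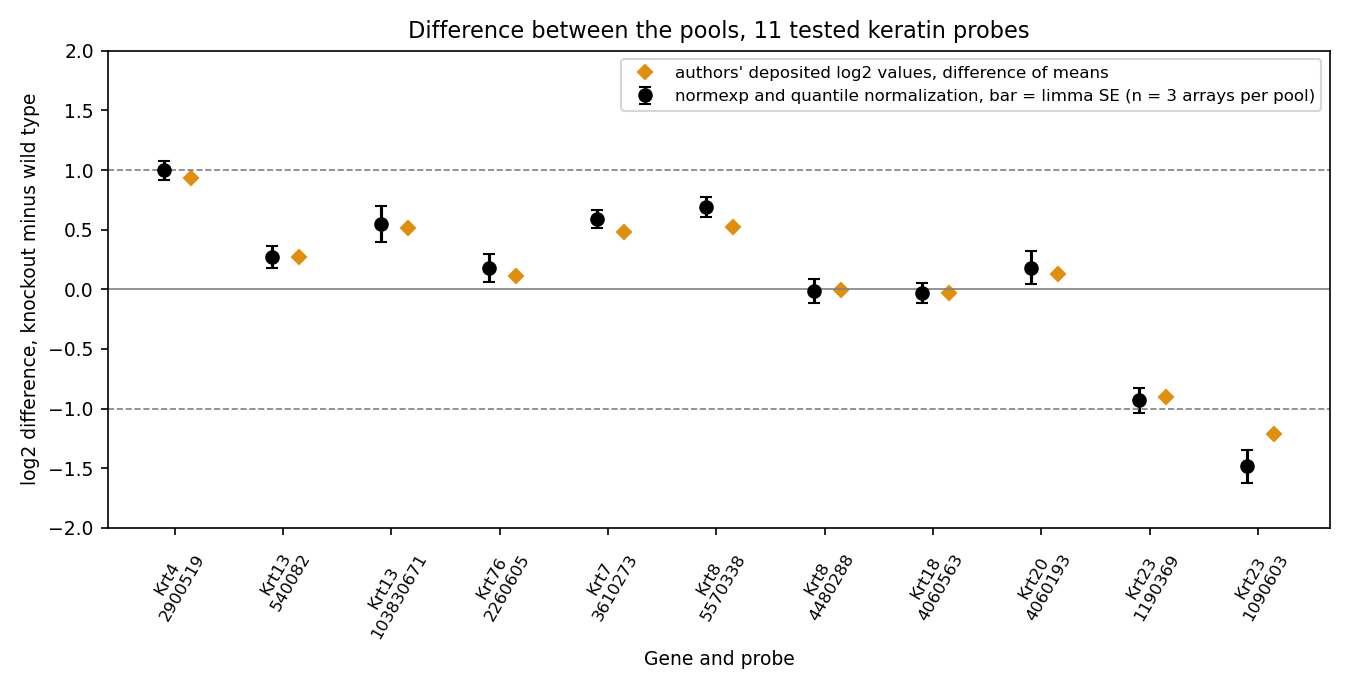
Log2 difference, knockout minus wild type, for the 11 tested keratin probes: black points with limma SE from 3 arrays per pool, orange diamonds the difference of means in the authors' deposited log2 values, dashed lines the 2-fold limit. The dimmer Krt23 probe lies below -1 in both, Krt4 touches the upper line at 0.9998 and lies at 0.94 in the authors' values, and Krt18 sits at -0.03.

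The position of the probes in the transcripts was not used here, so the larger fall on the dimmer Krt23 probe cannot be tied to a part of the gene. In the authors' deposited table the Krt23 probes differed by -0.91 and -1.21. The intervals of the fitted differences, -1.16 to -0.70 and -1.78 to -1.18, lie below 0. The 3 genes whose log2 intensities followed the dimmer Krt23 probe most closely over the 6 arrays were Cyp51, a cholesterol synthesis enzyme (Pearson r = 0.9999), Ybx1, a cold-shock RNA-binding protein (r = 0.9999), and Eif3i, a translation initiation subunit (r = 0.9998). Across 2 pools such an r reflects mostly the step between them, and it is given as a description. Ybx1 averaged 1091 in knockout and 5397 in wild-type papillomas.

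Of the genes with an available promoter, only Krt13 held a motif of the AP-1 family, to which Atf2 with its partner Jun belongs. The promoters are shown for Krt13 and for Krt23, the gene with a probe past the threshold. Each is the run of 250 bases before an annotated start in RefSeq (build GRCm38.p6, minus strand), 5′ to 3′ along the gene, with capitals at matches to the AP-1 motif TGANTCA on either strand. The first Krt13 entry is chr11:100120578-100120827, the second chr11:100121567-100121816, and Krt23 is chr11:99493121-99493370.
Krt13, first start: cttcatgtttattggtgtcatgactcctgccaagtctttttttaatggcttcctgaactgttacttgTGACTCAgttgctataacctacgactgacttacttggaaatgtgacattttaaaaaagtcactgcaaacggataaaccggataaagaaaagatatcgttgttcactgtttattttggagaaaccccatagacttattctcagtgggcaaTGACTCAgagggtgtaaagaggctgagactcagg
Krt13, second start: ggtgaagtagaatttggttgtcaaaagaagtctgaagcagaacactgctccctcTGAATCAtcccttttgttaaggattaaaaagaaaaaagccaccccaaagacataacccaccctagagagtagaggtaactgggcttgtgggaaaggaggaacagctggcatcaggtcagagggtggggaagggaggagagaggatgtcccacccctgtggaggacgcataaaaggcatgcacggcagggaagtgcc
Krt23: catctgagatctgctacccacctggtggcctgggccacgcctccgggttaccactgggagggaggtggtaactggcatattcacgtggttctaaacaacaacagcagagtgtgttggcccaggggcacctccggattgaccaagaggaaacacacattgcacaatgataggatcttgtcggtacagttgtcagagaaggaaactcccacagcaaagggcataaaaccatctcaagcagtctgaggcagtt

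Promoters of 7 of the 9 genes were in the RefSeq table, as 8 sequences. The AP-1 motif was in 2 of these 8, both of Krt13, against 6.75% of all 32851 promoters of the same length. The first Krt13 start had matches at bases -183 to -177 and -34 to -28, and the second at -196 to -190, counted back from the start. The full CRE site TGACGTCA, the half-site TGACG that lies within it, and the variant TGACGCAA, which contains no full site, were searched on both strands. None of them was in the 8 promoters, against 1.55%, 17.8% and 0.438% of all promoters. A match is a description of letters, and no match says only that these letters are not in this window.

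In the genome, the 9 genes lie in the keratin clusters of chromosomes 11 and 15, and of their immediate protein-coding neighbours outside the set, Krt15 and Krt79 passed the threshold. Krt13 and Krt19 lie on either side of Krt15, a keratin of basal cells and the follicle bulge, which rose by 3.12 (limma adjusted p = 4.15e-10), while Krt13 was at 0.27. Krt4 lies between Krt76, at 0.18 and background, and Krt79, a keratin of the follicle duct, which fell by 1.21. Krt8 and Krt18 are neighbours of each other, at 0.69 and -0.03. Krt20 and Krt23 are neighbours too, at 0.18 and, on the brighter Krt23 probe, -0.93. The other tested neighbours were Krt12 (0.61), Krt80 (-0.55), Krt78 (0.43), Krt9 (0.06) and Eif4b (0.02), all within 2-fold. Whether neighbours differed from each other was not tested.

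**Figure D3:**
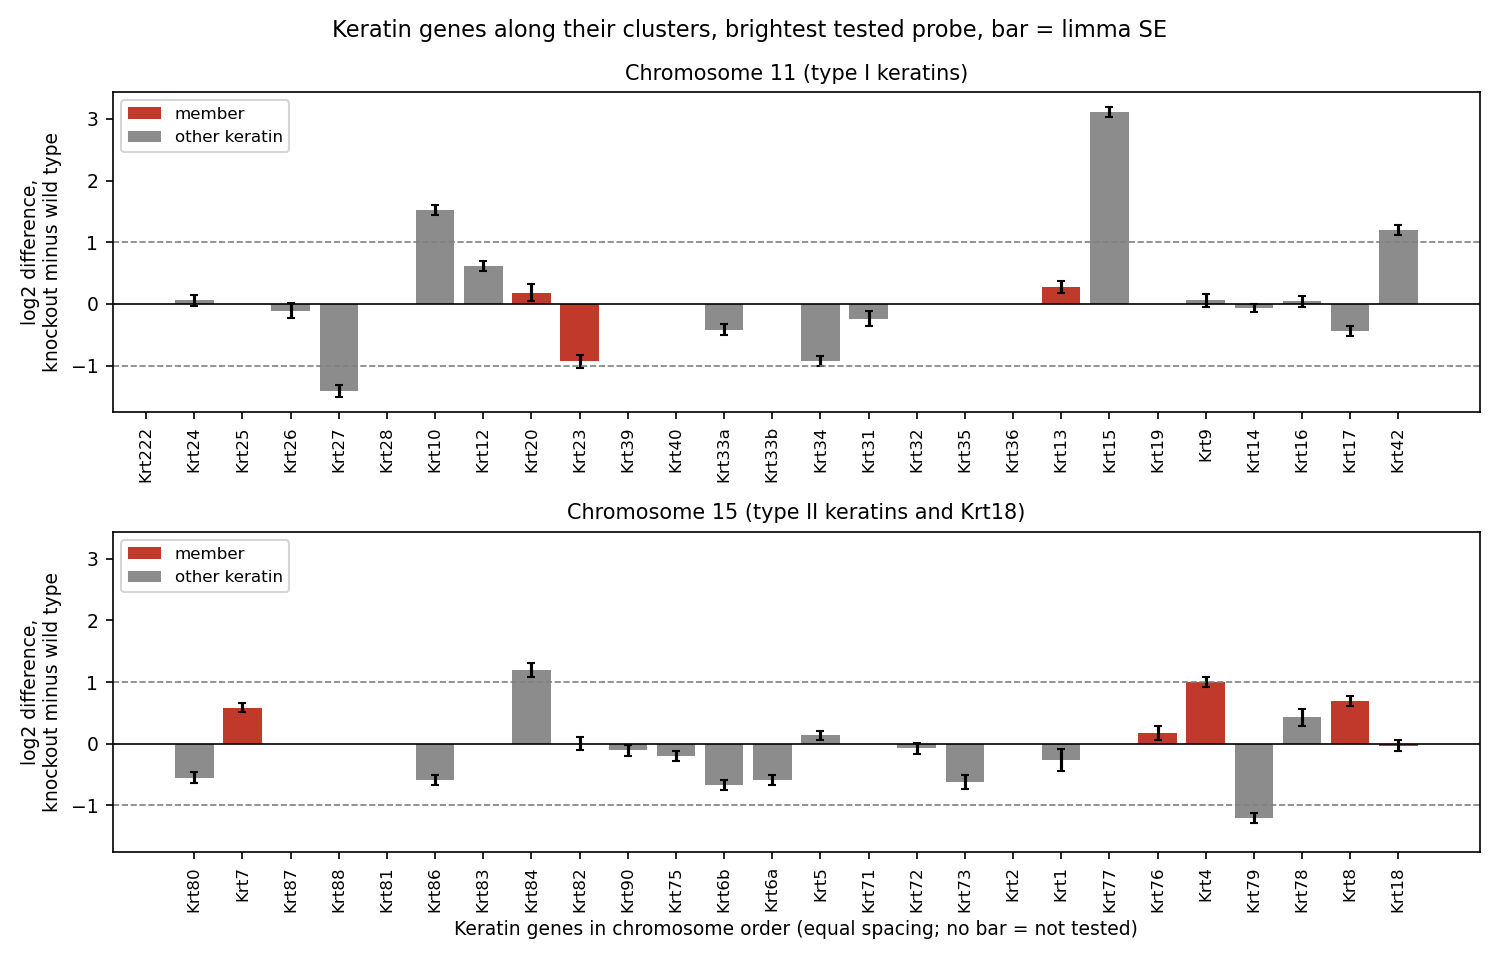
Log2 difference, knockout minus wild type, of the brightest tested probe of each keratin gene in chromosome order, with limma SE from 3 arrays per pool. Genes of the set are red, others grey, genes without a bar were not tested, and dashed lines mark 2-fold. Krt15 at 3.12 stands beside Krt13 at 0.27, and Krt79 at -1.21 beside Krt4 at 0.9998.

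Other keratins of epidermis and follicle gave 3 rises and 2 falls among 17 tested genes, against 1.12% rises and 2.48% falls among all 12096 tested genes, with a median of -0.07 against 0.08. Rises were led by Krt15 and by Krt10, the keratin of spinous cells (1.52, limma adjusted p = 6.32e-08), with Krt84, a hair keratin (1.20; 0.92 with the authors' values), named to complete the count. The falls were Krt27, an inner root sheath keratin at background on the knockout arrays and at least 1.94-fold lower, and Krt79. Krt42, a keratin not among these 17 genes, also passed the threshold, with a rise of 1.19 (limma adjusted p = 2.03e-07).

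Genes of mucosal squamous differentiation, the programme to which Krt4 and Krt13 belong, had a median of -0.58 over 23 tested genes, with 17 of them negative, 4 falls and 1 rise, against 2.48% falls, 1.12% rises and a median of 0.08 over all genes. With no filter on dim probes the median of the list was -0.22. Serpinb2, a serine protease inhibitor, fell by 1.64 (limma adjusted p = 1.69e-08) and Tmprss11a, a membrane serine protease of squamous epithelia, by 1.37 (above background on 2 knockout arrays). The other falls, named to complete the count, were Scel (-1.28) and Sprr1a (-1.21), both of the cornified envelope. The rise was Crnn, cornulin, at 1.03 (adjusted p = 7.95e-07), which was within the 2-fold limit with the authors' values (0.82), an offset of 100 (0.84), no background correction (0.89) and 75th percentile scaling (0.98). Krt4 was higher beside a list with a median below 0.

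Genes of simple and luminal epithelia had a median of 0.06 over 24 tested genes, with 2 rises and 2 falls, beside 1.12% rises, 2.48% falls and a median of 0.08 over all genes. It was at -0.01 with background subtracted and with only probes over background on all 6 arrays. Ltf, lactoferrin, rose by 1.68 (16252 in knockout and 5697 in wild-type papillomas, limma adjusted p = 3.45e-08). Cldn3, a tight junction claudin, was at background on the wild-type arrays and at least 1.64-fold higher in knockout; its fitted value lay at the limit and was below it in 6 alternatives. Aqp3, a water and glycerol channel, fell by 1.28, and Spint2, a protease inhibitor, fell by 1.43 (above background on 2 knockout arrays).

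Among genes that bind, fold or phosphorylate keratin filaments, 0 of 23 rose and 2 fell past limma's threshold (1.12% and 2.48% of all genes), with a median of 0.18. At an unadjusted p under 0.05, 12 were higher and 7 lower, beside 29.7% and 18.1% of all genes. Sfn, the 14-3-3 protein of stratified epithelia, fell by 1.85, and Dnajb6, a chaperone that binds Krt18, fell by 1.77 on the brightest of its 3 tested probes (238.8 in knockout and 909.2 in wild-type papillomas). None of 23 genes of skin tumour progression passed limma's threshold, with 5 higher and 8 lower at an unadjusted p under 0.05 (all genes as above) and a median of -0.03. The brightest of them, Ccnd1, the cyclin D1 gene, was at 0.35 (adjusted p = 0.00263).

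Most markers of other skin cells that make these keratins were at background. Of 7 Merkel cell markers, 5 (Atoh1, Chga, Insm1, Piezo2 and Syp) were not above background on any array. Sox2, which other skin cells also make, was at -0.87 (limma adjusted p = 7.01e-05), and Isl1 was at least 1.87-fold higher in knockout, where it was above background on 3 arrays against none in wild type. The summed raw intensity of all Merkel probes was 1113 to 1509 in knockout and 1764 to 1867 in wild type. Of 8 mammary or sweat gland markers on the array, 5 (Csn1s1, Csn2, Foxa1, Lalba and Wap) were not above background on any array, and Aqp5, a water channel of secretory cells, fell by 1.45. Their summed raw intensity was 1615 to 1970 in knockout and 2189 to 2344 in wild type. Both sums are of raw values that include background, whose mode was 100.5 to 123.7 on knockout and 122.1 to 134.3 on wild-type arrays. In knockout and wild type, Sox2 averaged 271.5 and 577.6, and Aqp5 172.4 and 509.0. The sums therefore do not measure the number of these cells.

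Of the other cell types, fibroblast markers differed between the pools beside the keratin values. Over all genes 1.12% rose and 2.48% fell past the threshold. At an unadjusted limma p under 0.05, 29.7% of all genes were higher and 18.1% lower. All 6 fibroblast genes were negative and 3 fell, with Lum, lumican, at -2.01 and Col1a1, a collagen chain, at -1.12, and summed raw intensities of 3744 to 5055 in knockout and 9441 to 10224 in wild type. Spinous markers summed to 23302 to 25934 in knockout and 11134 to 11828 in wild type. Most of each sum was Krt10 (22305 and 8816 on average), the 1 rise among 4 genes. Krt1 was at -0.27, Dsg1a at 0.11 and Dsc1 at 0.14, none of them past limma's test. Dsg1a was above background on 1 knockout array and on no wild-type array. Basal markers summed to 71870 to 84377 in knockout and 79880 to 81535 in wild type, which overlapped, with Krt15 the 1 rise among 7 genes. Among 4 sebaceous genes none passed limma's threshold (0 higher and 2 lower at an unadjusted p under 0.05; brightest Scd1 at -0.32), and likewise none of 2 immune genes (1 higher and 0 lower; brightest Ptprc at -0.07) or of 3 endothelial genes (0 and 0; brightest Pecam1 at 0.10). Of 3 skeletal muscle genes Acta1 fell (-1.09; -0.95 without knockout array 3). The part of these cell types in the differences of Krt23, Krt4, Krt7 and Krt8 was not tested.

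**Figure D4:**
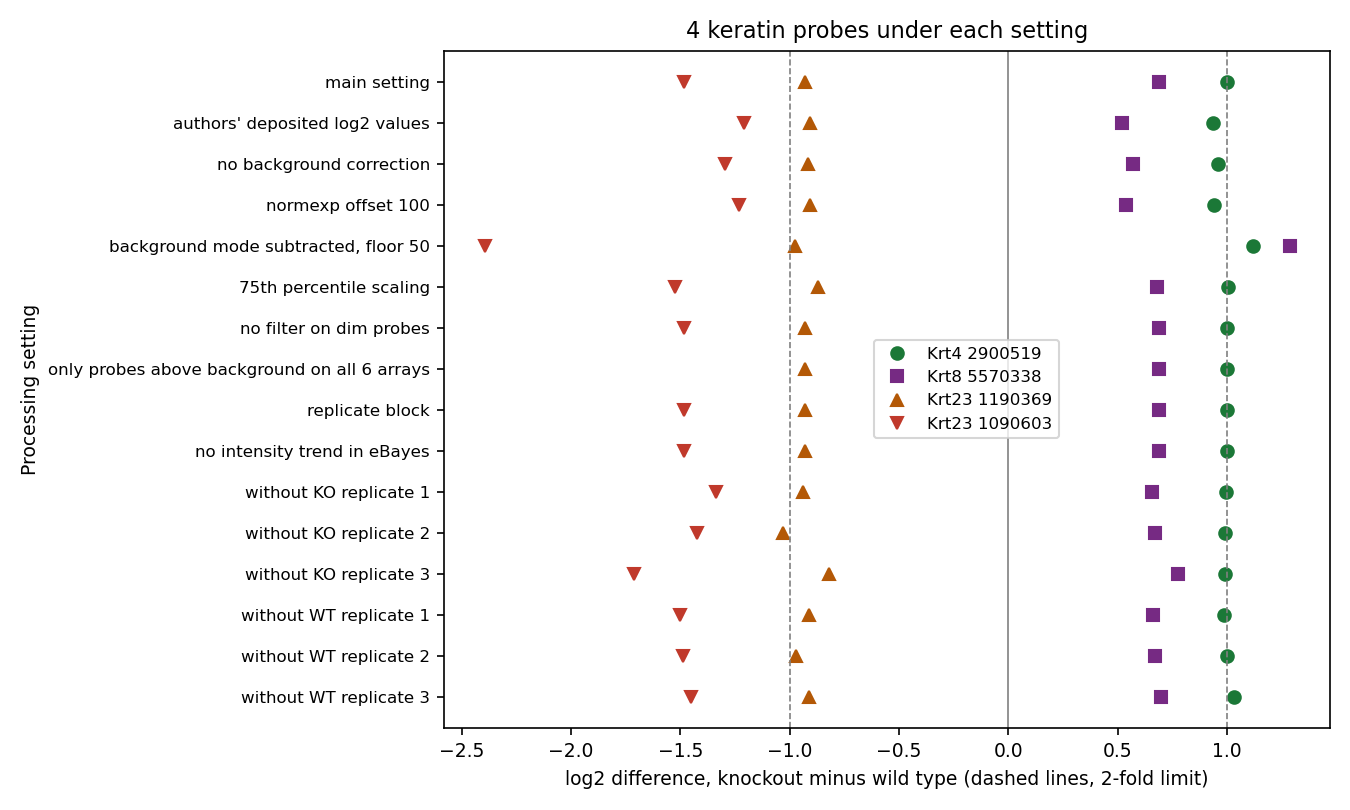
Log2 difference, knockout minus wild type, of 4 keratin probes (Krt4, the brighter-signal Krt8 probe and both Krt23 probes) under the main setting and 15 alternatives, with dashed lines at the 2-fold limit. The dimmer Krt23 probe stays below -1 wherever it was tested (-2.40 to -1.21), and Krt4 lies between 0.94 and 1.12, on either side of the limit.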

How the data were processed

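Array titles gave the genotype groups. The authors deposited raw intensity per probe, per the file headers, and no detection p. They also deposited log2 values, in which all 6 columns share nearly the same quartiles, by a method not given in the sources used here. The submitters' processing notes name BeadStudio 3. Background was corrected by normexp in limma (offset 50), which shrinks differences of dim probes, then log2-transformed and quantile-normalized. Probes above the median mean log2 intensity (23058 of 46116) were tested with limma (lmFit, eBayes with trend; R 4.3.3, limma 3.58.1), two-sided, with Benjamini-Hochberg adjustment over them. Past the threshold means an adjusted p under 0.05 and at least 2-fold. The fit was tested on simulated data. A probe was above background when its raw intensity exceeded the array's mode by 3 SDs of the values below it. A bound was given for Krt27, Cldn3 and Isl1, each below that on all arrays of 1 pool. Member keratin probes, Dsg1a and Ptprc, where below it, kept their fitted differences, which are uncertain near background. Lists used each gene's brightest tested probe. Names came from GEO's platform annotation (29534 probes with 1 symbol, 11 with several, 16571 with none listed). The rule named every probe of the 9 genes, up to 2 rises and 2 falls per list or else its brightest member, and the 3 genes most like the top probe. Members, lists and alternatives were chosen with earlier results of these data known. Depth does not apply to arrays, and 3 per pool limit the precision.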

Additional observations from a re-analysis of the deposited data

How the results depend on the processing

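The dimmer Krt23 probe kept its fall in every alternative that tested it. Past the threshold with 75th percentile scaling were 2 of 11 tested keratin probes (Krt4 added). With each array's background subtracted 3 of 9 passed (Krt4 and Krt8 added). With only probes over background on all 6 arrays 0 of 7 passed (5 higher and 1 lower at an unadjusted limma p under 0.05). The fallen Krt23 probe was not tested there. In that setting the median of all tested probes was 0.12, against 0.05 in the main setting. The share of all probes at that unadjusted p is not given, so the counts cannot be read as more than the background. Leaving out single arrays gave 1 to 2 of 11. Over all probes, 1120 of 23058 tested passed with 75th percentile scaling, 748 of 23058 with the authors' log2 values and 2027 of 16118 with background subtracted. In the main setting 1126 of 23058 passed, so background subtraction raised the share called over all probes too. The count was 635 with only probes over background on all arrays, and 1093 to 1228 without 1 array. Signs turned only for probes near 0: the dim Krt8 probe was at 0.13 with 75th percentile scaling, and leaving out 1 array gave -0.119 to 0.0609 for it, -0.0651 to 0.0170 for Krt18 and -0.0147 to 0.295 for Krt20. Scaling to the 75th percentile put the median of all tested probes at 0.13. The partner shifts ranged over 0.45 (dimmer Krt13 probe) to 0.85 for Krt4 and Krt13 and 0.55 to 1.33 for Krt8 and Krt18, in settings added after the data had been seen. With the replicate number as a block, 1128 probes and the same single keratin probe passed. Each array's deviations from the mean of its pool, probe by probe, were correlated between knockout and wild-type arrays. For same-numbered arrays these correlations were 0.11, -0.13 and 0.04, and for differently numbered arrays -0.19 to 0.14. They therefore give no sign that the numbers pair the arrays. List medians left their technical spread in 63 of 209 cases, among them mucosal genes (-0.680 to -0.220), tumour progression genes (-0.112 to 0.0372) and other keratins (-0.171 to 0.0234). Signal near background limits Krt76, Krt19, Krt20 and Krt8 most. The causes of these shifts were not tested.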
